A study of Mus musculus with 9 samples.

Results

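The proteasome is the barrel-shaped protease that degrades ubiquitin-tagged proteins. Its core particle is built of alpha rings, which gate access, and beta rings, which hold the proteolytic sites. A regulatory particle caps the core. The base of that cap unfolds substrates with a ring of ATPases, and its lid removes the ubiquitin chain. Other proteins help the particles assemble, and alternative activators can take the place of the cap. Most subunits of the particle are needed in every cell, and endothelial cells depend on it, among other tasks, for the turnover of hypoxia-inducible factors and of inhibitors of NF-kappaB.

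The genes described here are the constitutive subunits and regulators of this machine. A probe set was taken when the platform annotation gave it exactly 1 gene symbol that starts with Psma, Psmb, Psmc, Psmd, Psme or Psmg followed by a digit. The interferon-inducible catalytic subunits Psmb8, Psmb9 and Psmb10 were left out. This gave 45 of 15964 named genes and 76 of 36701 probe sets, with all 45 symbols also found in RefSeq through their Entrez identifiers. By role they were 16 core genes, 9 base genes, 8 lid genes, 3 activators and 7 assembly chaperones. The remaining 2, Psmc3ip and Psme3ip1, share the spelling but encode no subunit. Psmc3ip acts in meiotic recombination, and Psme3ip1 is a partner of the activator Psme3. The activator gene Psme2 is not covered, because its probe sets carry the symbols of 2 genes.

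The cells were GFP-positive cells sorted from pooled retinas of mouse pups that are homozygous for a Tie2-GFP transgene, at postnatal day 8. All pups had received intraperitoneal APB5, an antibody that blocks the receptor PDGFRb, from postnatal day 0 to day 7, so every array comes from 1 treated group and none shows the effect of the antibody. The GFP follows the Tie2 promoter, which is active in endothelial cells and also in some blood cells. Amplified RNA was hybridised to the MG-U74v2 designs A, B and C, on 3 replicate arrays each, or 9 arrays in all. Whether replicate arrays stem from different animals is not stated in the labels. Each SD therefore measures how arrays differ, which may be technical, and with 3 arrays it is imprecise. Cell type markers were listed with earlier results of these data known, so their counts are a description only. On design A, 8 of 9 endothelial genes, all but Pecam1, had a probe set above the 75th percentile on all 3 arrays. Over all named genes, 28.6% reached that position. None of 7 mural, 6 photoreceptor and 2 erythroid genes did, against 1 of 7 macrophage genes (Csf1r), 1 of 4 glial genes (Glul) and 1 of 6 neuronal genes (Tubb3). Csf1r, Glul and Tubb3 each passed only through a probe set whose name marks it as shared or reduced. Their other design A probe sets lay at percentiles 38.4, 3.49 and 37.6. Among the endothelial genes, Tie1 also passed only through such a probe set. The part of other cells in the values below was not tested.

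Promoter sequence did not enter the choice of members, and a motif in it differed between the roles. RefSeq windows on GRCm38.p6, from 250 bases before to 50 bases after a gene's start, were at hand for 37 of the 45 members. Of 3 motifs searched on both strands, the one most unlike its background was the ETS motif CCGGAAG, a form of the purine-rich element bound by ETS transcription factors. It occurred in 16 of the 37 members (43.2%), against 9.93% of all genes with a window, 17.1% of the named genes of design A and 23.7% of those with a probe set above the 75th percentile. A match was present in 5 of 8 base genes (62.5%) and 4 of 6 lid genes (66.7%), but in 1 of 12 core genes (8.33%), Psma6. Of the 22 matches in member windows, 19 began within 100 bases before the start or after it. The positions of matches in the windows of other genes were not counted, so this is not read as particular to members. The 6 stretches below are from base and lid genes and show the match in capitals, read 5′ to 3′ on the strand of the gene. These matches begin 45 or fewer bases before the start. Base matches farther out are not shown, at 84 bases in another Psmc2 window, 100 for Psmc6 and 125 for Psmd4. The lid match of Psmd13, which reaches past the start, is not shown either. Where CTTCCGG is in capitals, the match is on the opposite strand.
Psmc1 (chr12:100110149-100110201, plus strand): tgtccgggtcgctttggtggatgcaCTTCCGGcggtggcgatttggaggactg
Psmc2 (chr5:21786698-21786746, plus strand): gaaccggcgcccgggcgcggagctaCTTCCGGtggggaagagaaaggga
Psmd2 (chr16:20651601-20651651, plus strand): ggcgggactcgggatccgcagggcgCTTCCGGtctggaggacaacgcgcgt
Psmd6 (chr14:14120959-14121015, minus strand): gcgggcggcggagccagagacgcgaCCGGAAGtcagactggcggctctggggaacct
Psmd11 (chr11:80428579-80428614, plus strand): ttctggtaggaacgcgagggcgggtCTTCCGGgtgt
Psmd12 (chr11:107479486-107479527, plus strand): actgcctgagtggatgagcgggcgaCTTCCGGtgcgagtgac

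Over all members, the other motifs were near their background. TGACNNNGC is the core of the antioxidant response element, through which Nfe2l1 is known to raise proteasome genes when the protease is inhibited. It was present in 6 of the 37 members (16.2%), beside 14.0% of all genes and 18.2% of design A genes above the 75th percentile. The tissue-restricted core gene Psmb11 has a window but no match. The constitutive catalytic genes Psmb5 and Psmb6 were among the 6, and their matches are shown because these subunits are described in detail below.
Psmb5 (chr14:54618009-54618067, minus strand): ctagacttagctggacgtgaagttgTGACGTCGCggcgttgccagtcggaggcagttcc
Psmb6 (chr11:70525323-70525356, plus strand): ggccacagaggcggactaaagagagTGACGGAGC
The third motif, CCAAT, was present in 15 of 37 members (40.5%), beside 41.1% of all genes. It differed between the roles too, with 7 of 12 core genes (58.3%), 3 of 8 base genes (37.5%) and 1 of 6 lid genes (16.7%). Differences between roles were not tested for any motif. No match of 1 motif overlapped a match of another in the members' windows. The 16 members with an ETS match had a median percentile of 83.8 on design A, and the 20 without one had 83.9. A match is a stretch of letters and was not tested as a binding site.

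**Figure D1:**
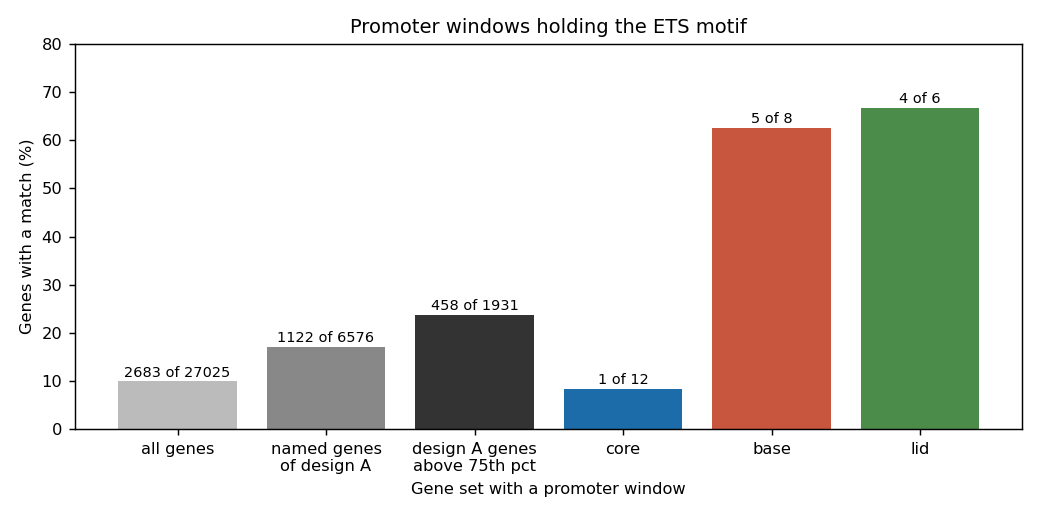
Share of genes, in percent, whose promoter window holds the ETS motif, for all genes, for the named genes of design A, for design A genes with a probe set above the 75th percentile of all 3 arrays, and for core, base and lid genes; numbers above the bars are genes with a match of genes with a window. The base (62.5%) and lid (66.7%) bars stand above every background bar. The core bar (8.33%, or 1 of 12 genes) stands just below the lowest of these, that of all genes (9.93%).

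Proteasome genes sat high on the arrays. Positions are given as the percentile of a probe set's intensity among all probe sets of the same array, from 0 to 100, with a mean taken where a gene had several probe sets on 1 design. Of the 43 members on design A, 31 (72.1%) had a probe set above the 75th percentile on all 3 arrays, against a background of 28.6% of 8251 named genes. Among core, base and lid genes it was 26 of 31 (83.9%). Genes with several probe sets could pass more easily, but among genes with a single probe set it was 24 of 35 members (68.6%), against 25.3% of 6178 genes. Above the 40th percentile, a floor below which a signal was not read as detected, lay 41 of 43 members against 66.3% of named genes. The 2 that stayed below it were the base ATPase Psmc4 and the meiotic factor Psmc3ip. The median over members was 82.2, beside 51.8 over all named genes of design A.

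**Figure D2:**
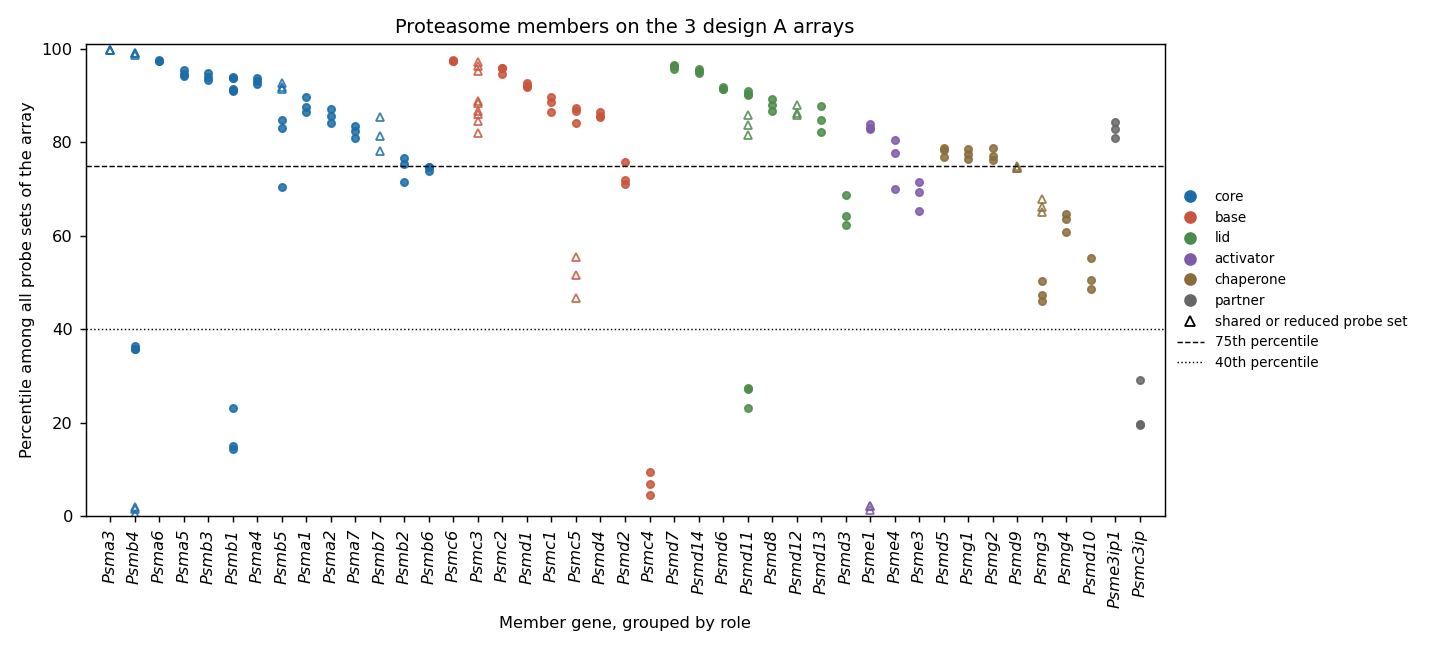
Percentile of every member probe set on each of the 3 design A arrays, with genes grouped by role and ordered within a role by their highest probe set; filled circles are plain probe sets, open triangles are probe sets whose name marks them as shared or reduced, and the lines mark the 75th and 40th percentiles. Most core, base and lid genes have a probe set above the upper line, while Psmc4 and Psmc3ip lie below the lower one and Psmb4, Psmb1, Psmd11 and Psme1 have probe sets far apart.

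All 7 alpha ring genes of design A exceeded the 75th percentile, and each had 1 probe set there. Psma3 stood highest of all members. It read 2972, 2702 and 2843 in the 3 replicates, at percentile 99.8 ± 0.034 (SD, n = 3). Its probe set is of a kind that may pick up related transcripts, and 2 other probe sets for the gene on design C lay at 86.1 ± 2.1 and 73.5 ± 1.0. Psma6 read 768, 818 and 771, at percentile 97.5 ± 0.076. These arrays differed little from one another for both genes. Psma5, Psma4, Psma1, Psma2 and Psma7 followed, at percentiles between 94.7 and 82.2, and their largest SD was 1.6. Psma7 was the lowest of the ring, with 136, 150.5 and 147.

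The beta ring was more uneven, with 5 of 7 genes past the 75th percentile. Its 3 catalytic subunits carry the protease activities. Psmb5, the chymotrypsin-like subunit, had 3 probe sets. That of design B read 603, 762 and 828 at percentile 98.96 ± 0.58, and one of design A read 297, 355 and 293 at 91.95 ± 0.72. Both are of the shared or reduced kinds, which may pick up related transcripts. The plain probe set of the gene, on design A, read 153, 84.0 and 158. Replicate 2 was low, so that this probe set did not stay above the 75th percentile. Its range of 0.91 log2 units over replicates was the widest of any member probe set above the floor, whereas the other design A probe set of Psmb5 read highest in that replicate. Psmb7, the trypsin-like subunit, read 118, 142 and 166 at percentile 81.6 ± 3.7, also with a probe set of the shared or reduced kinds. Psmb6, the caspase-like subunit, read 99.1, 99.9 and 92.35 at percentile 74.4 ± 0.44, just under the threshold on every array. Psmb2, a structural subunit, also missed it, with 86.2, 103 and 104, because replicate 1 was low.

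The other structural beta subunits showed how much the probes matter. Psmb3 read 372, 471 and 381 on design A, at percentile 94.05 ± 0.76, and 8.51, 9.35 and 7.55 on design C, at 8.71 ± 1.9. Psmb4 had 3 probe sets on design A, whose mean percentiles were 98.96, 35.9 and 1.30, the widest gap among members at 97.7 points. The highest read 1237, 1547 and 1462, and the lowest 4.68, 5.73 and 2.59. Both are of the shared or reduced kinds, while the plain probe set in between read 30.25, 30.5 and 31.9, under the floor. Psmb1 had plain probe sets that read 388, 412 and 368 at percentile 93.8 ± 0.15 and 299.6, 293 and 271 at 91.2 ± 0.22. Another read 16.3, 16.35 and 22.8, at 17.5 ± 4.9, and that of design B lay at 24.3 ± 2.2. In each of these cases the gap between probe sets of 1 gene was many times the SD over replicates.

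The inducible subunits that replace the catalytic ones in the immunoproteasome lie just outside the rule. On design A, Psmb8 read 184, 209 and 169, Psmb9 read 116, 95.9 and 104, and Psmb10 read 100.1, 106 and 114. Their percentiles were 86.3 ± 0.98, 76.0 ± 2.1 and 76.4 ± 1.9 (SD, n = 3). The design A probe sets of Psmb5, Psmb6 and Psmb7 spanned 74.4 to 91.95, a range that holds these values. By the mean over its probe sets, however, Psmb5 lay at 85.7, slightly below Psmb8. Since each gene has its own probes, no ratio of inducible to constitutive subunits can be read from them.

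Tissue-restricted core subunits were measured outside design A. Psma8 replaces Psma7 in the testis, and Psmb11 replaces Psmb5 in the thymus cortex. A plain probe set for Psma8 on design C read 13.2, 10.8 and 12.2, at percentile 15.7 ± 2.5. Another, of a kind that may cross-hybridise with related genes, read 57.3, 57.9 and 62.4 at 71.6 ± 1.6. The single probe set for Psmb11 on design B read 61.4, 76.3 and 69.8, at percentile 66.4 ± 3.6. These positions lie above the floor for Psmb11 and for 1 of 2 Psma8 probe sets, but a signal at such a position does not show that the transcript was present.

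Base genes were high with 1 exception, and 7 of 9 exceeded the 75th percentile. The ATPase Psmc6 read 771, 834 and 708, at percentile 97.4 ± 0.12, and on design B 128, 180 and 201, at 87.3 ± 4.1. Psmc2 read 536, 551 and 419, at 95.4 ± 0.67. Both were high on all arrays. Psmc1 lay at 88.3 ± 1.6, and the 3 probe sets of Psmc3 at 96.2, 87.9 and 84.1, all of the shared or reduced kinds. For Psmc5 the probe sets differed, with 86.0 and 51.2 on A, and 31.1 for the C probe set. Psmc4 was the exception, with 10.3, 13.0 and 8.80 on design A, at percentile 7.01 ± 2.5, the lowest gene of all members. On design C it read 23.3, 25.5 and 30.6, at 41.6 ± 5.7, near the floor. Psmc4 encodes 1 of the 6 ATPases of the ring, all of which are part of every cap. The scaffold subunit Psmd1 read 315, 323 and 325, with a range of 0.042 log2 units over replicates, at percentile 92.2 ± 0.45. Psmd4, a ubiquitin receptor, lay at 85.8 ± 0.53 and on design C at 52.7 ± 0.82. Psmd2, the other scaffold, lay at 72.9 ± 2.5 and passed the 75th percentile in replicate 2 alone.

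Of the lid genes on design A, 7 of 8 exceeded the 75th percentile. Psmd7 read 523, 641 and 547, at percentile 96.1 ± 0.53. Psmd14, the deubiquitinase that cuts the chain from the substrate and pairs with Psmd7, read 503, 536 and 425, at 95.2 ± 0.44. Both read highest in replicate 2. The structural subunits Psmd6, Psmd8, Psmd12 and Psmd13 lay at 91.5, 87.96, 86.7 and 84.9, that of Psmd12 with a probe set of the shared or reduced kinds. Psmd11 had 3 probe sets, which read 266, 295 and 242, then 141, 162 and 171, then 24.0, 24.7 and 22.8, at percentiles 90.4, 83.7 and 26.0. The lowest of them was under the floor on every array, like those of Psmb1 and Psmb4. Psmd3 was lowest, with 66.5, 78.3 and 61.2, at percentile 65.1 ± 3.3, and stayed below the 75th percentile on all arrays.

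Core, base and lid could not be put in a stable order. The mean percentile on design A was 83.1 ± 0.95 for 14 core genes, 77.4 ± 0.96 for 9 base genes and 84.3 ± 0.80 for 8 lid genes (SD over 3 arrays). Core exceeded base by 5.59, 4.25 and 7.19 points on the 3 arrays, a mean of 5.68 ± 1.5. Base minus lid was -6.89, -6.63 and -6.94, a mean of -6.82 ± 0.17. Core minus lid was -1.30, -2.38 and 0.25, so the arrays did not share a sign. Core minus base and base minus lid exceeded the spread between arrays, but both rested on Psmc4. Without it, in a comparison chosen after its values were seen, the base mean was 86.3 ± 0.85, core minus base became -3.13 and base minus lid became 1.99. With medians over genes in place of means, core minus base was -2.48 and base minus lid 0.50. The SD over genes within a role, 14.4 for core, 28.1 for base and 12.02 for lid, was larger than any of these differences. No p is given, since all arrays are of 1 condition and genes are not replicates.

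**Figure D3:**
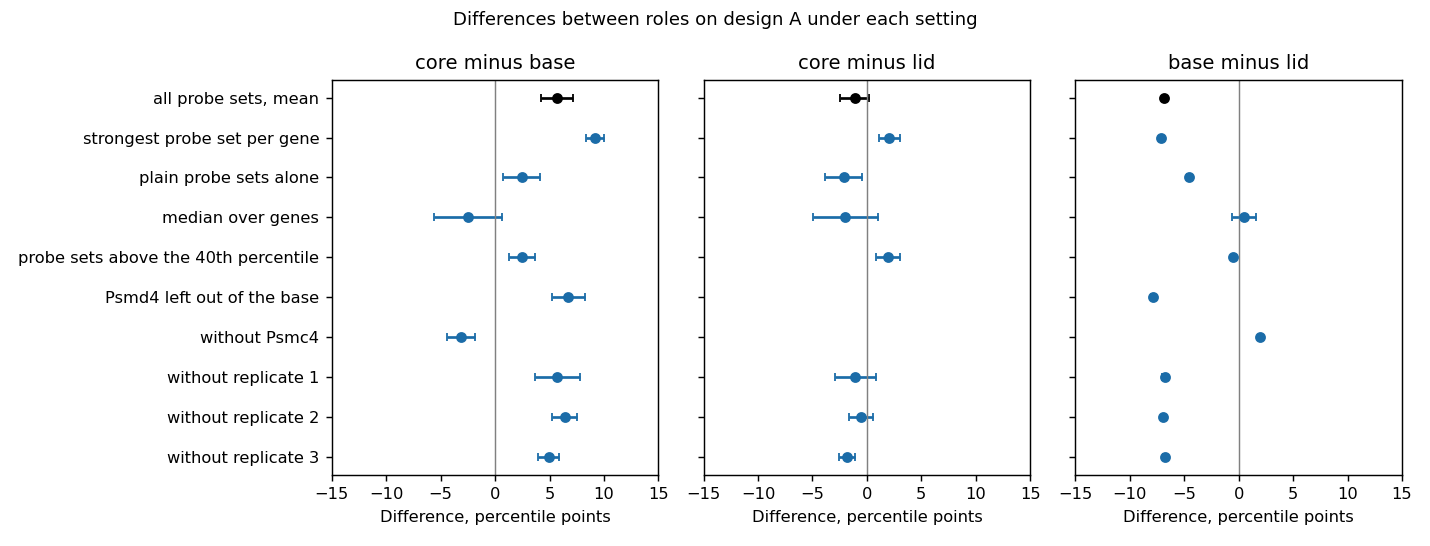
Differences between the mean percentiles of core, base and lid genes on design A, in percentile points, under each setting; points are means over arrays, bars are the SD over 3 arrays (over 2 where a replicate was left out), and black marks the values given first in the text. Core minus base and base minus lid lie on opposite sides of 0 with and without Psmc4, and core minus lid stays within a few points of 0.

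Within the core, the alpha ring lay above the beta ring on all 3 arrays, by 17.2, 17.1 and 16.2 percentile points, a mean of 16.8 ± 0.56 (SD, n = 3). This comparison was added after the data were seen. The sign was the same under each alternative tried, but the size was not. Taking each gene by its strongest probe set gave 4.53 points, and keeping probe sets above the floor gave 5.61. Each alpha gene has 1 probe set on design A, so only Psmb1, Psmb4 and Psmb5 can move the difference between these settings.

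By mean percentile on design A, activators (62.4 ± 2.6) and chaperones (68.4 ± 0.85) lay below core, base and lid genes, of which the base was lowest at 77.4. The activator mean includes a reduced probe set of Psme1 at 1.90, and no alternative setting was tried for activators or chaperones. Counts above the 75th percentile on design A were 1 of 3 activators and 3 of 7 chaperones, against 28.6% of named genes. Counts this small are not read as a departure from that share. Psme1, which caps the core together with Psme2 and is induced by interferon, read 153, 155 and 152 with 1 probe set, at percentile 83.2 ± 0.54. The other read 5.68, 4.87 and 5.92, at 1.90 ± 0.50, and is of the reduced kind. Psme4, a single-chain activator, read 132, 117 and 78.85 on design A, at 75.95 ± 5.4, and 52.6, 43.5 and 62.6 on design C, at 67.6 ± 6.0. Replicate 3 was the lowest on design A and the highest on design C. Psme3, a nuclear activator, read 78.6, 87.6 and 67.5, at 68.7 ± 3.1.

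Among the chaperones of the core, Psmg1 read 109, 122 and 108, at percentile 77.5 ± 1.0, and Psmg2, its partner, lay at 77.3 ± 1.3. Psmg3 and Psmg4 form a second pair and lay lower, at 57.1 ± 1.4 and 63.0 ± 2.0. Psmg3 lay at 31.8 ± 6.4 on design C. Of the chaperones of the base, Psmd5 read 122, 113 and 113 at 78.0 ± 1.1 on design A, with 71.3 ± 2.7 on design B and 28.4 ± 1.3 on design C. Psmd9 lay at 74.6 ± 0.18, just under the 75th percentile on all arrays. Psmd10, also known as the oncoprotein gankyrin, read 44.2, 42.5 and 50.2 on design A, at 51.4 ± 3.3, and lay at 70.04 ± 1.6 on design C. Of the genes that encode no subunit, Psme3ip1 read 137, 166 and 143 at percentile 82.7 ± 1.6, with 38.3 ± 2.4 for its design C probe set. Psmc3ip read 19.3, 25.8 and 20.2, at 22.8 ± 5.5.

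Probe sets on designs B and C, which were drawn largely from less characterised transcripts, were counted separately. Above the 75th percentile on all arrays were 35 of 55 member probe sets of design A (63.6%), against 22.9% of all its probe sets. On design B it was 2 of 5, against 22.4%, and on design C it was 2 of 16 (12.5%), against 22.5%. Above the 40th percentile were 48 of 55 on design A against 56.6% of all, 4 of 5 on B against 56.4% and 9 of 16 on C against 56.4%. The excess of high members was thus seen on design A and not on C, and the 5 probe sets of design B are too few to tell. The 12 genes on both A and C lay a median of 29.2 points lower on C, while over all 2049 genes on both designs the median difference was 0.0041. High genes of design A were in general lower on C, however. Among genes above percentile 75 on A, 5 of 8 members were lower on C by more than 20 points, against 61.2% of 505 genes, and the median difference was 34.5 points for members and 31.6 for all. In this respect the proteasome genes were near the background of other high genes. On design B, 1 of 4 shared members, Psmb1, was lower by more than 20 points, against 31.2% of all shared genes. Among genes above percentile 75 on A it was 0 of 3 members, against 68.0%. Psmc4 and Psmd10 were the 2 of 12 that lay higher on C.

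**Figure D4:**
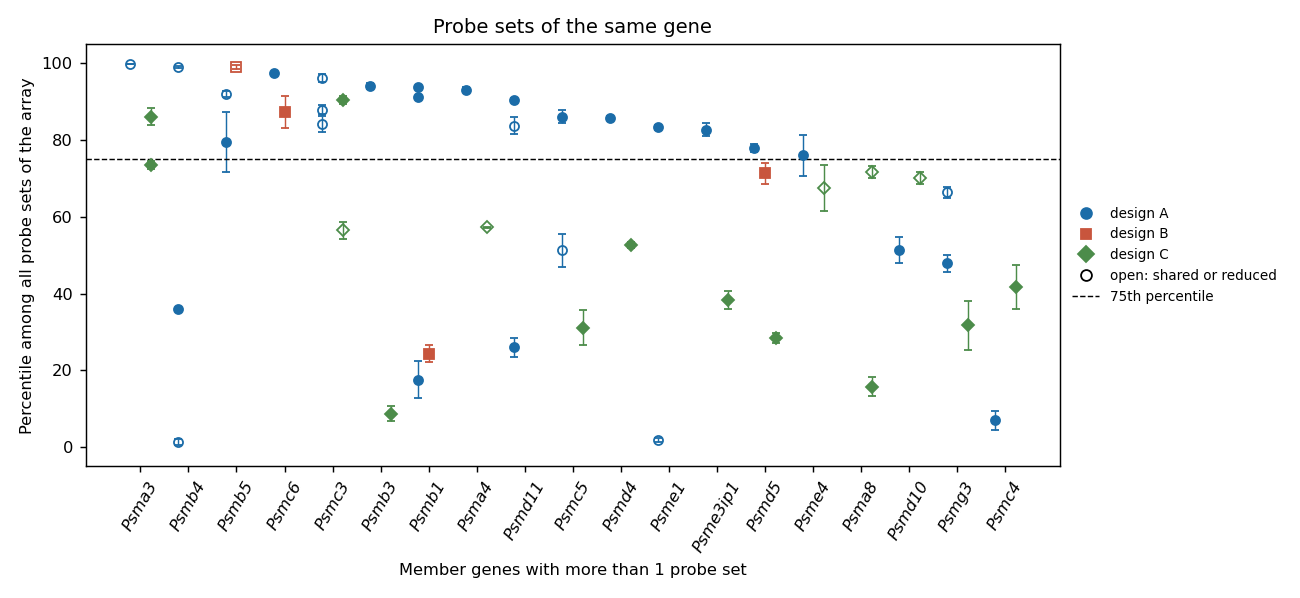
Mean percentile of each probe set of the member genes that have more than 1 probe set, by array design; bars are the SD over 3 arrays, open symbols are probe sets marked as shared or reduced, and the line is the 75th percentile. The SDs are small beside the widest gaps between probe sets of 1 gene, which reach 97.7 points for Psmb4 on design A. Narrower gaps are closer to the SDs. The 2 design A probe sets of Psmb5 lie 12.5 points apart, and the plain one has an SD of 7.8. Psme4 has a design A mean of 75.95 (SD 5.4) beside a design C mean of 67.6 (SD 6.0).

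Replicates were close for members. The median range over 3 replicates was 0.27 log2 units for the 55 member probe sets of design A, beside 0.25 for all probe sets of that design. Only the lowest probe set of Psmb4 had a range over 1 log2 unit, at 1.15, which is 1 of 55 (1.82%) against 1.88% of all. No member probe set on designs B and C did, against 1.41% and 2.01%. On design A, 33 of 55 member probe sets (60.0%) read highest in replicate 2. That was so for 41.1% of all probe sets and for 52.8% of the 2850 above the 75th percentile, beside which the member share was 22 of 35 (62.9%). Among these high probe sets the other replicates departed more. Replicate 1 was highest for 3 of 35 members (8.57%) against 33.9% of the 2850, and replicate 3 for 10 (28.6%) against 13.4%. By role, replicate 2 was highest for 9 of 19 core, 9 of 12 base and 8 of 10 lid probe sets. After centring each array on its median, lid probe sets deviated from their own mean by a median of 0.14 log2 units in replicate 2 and -0.11 in replicate 3. The same values were 0.10 and -0.07 for base, 0.04 and 0.02 for core, and 0.06 and -0.09 for all probe sets above the 75th percentile. In replicate 1 the core deviated most, by -0.06, beside 0.02 for all probe sets above the 75th percentile, -0.01 for base and 0.00 for lid. The difference between roles was not tested.

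**Figure D5:**
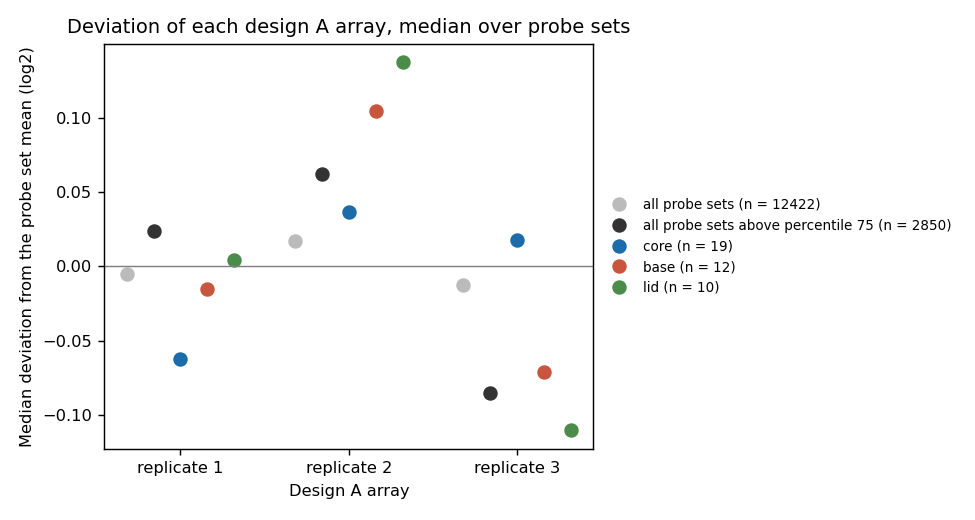
Median deviation of probe sets from their own mean over the 3 design A arrays, in log2 units after centring each array on its median, for all probe sets, those above the 75th percentile, and core, base and lid probe sets. Lid (0.14) and base (0.10) lie highest in replicate 2, and in replicate 3 the core (0.02) is the one group above 0.

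Other genes of the pathway, from a list of 33 that are no members by name, were measured for 24, of which 20 had a probe set on design A. Of these, 13 exceeded the 75th percentile there, against 28.6% of named genes. Sem1, the smallest lid subunit, read 733, 805 and 696 with a reduced probe set, at percentile 97.3 ± 0.12. Its plain probe set, on design C, lay at 59.95 ± 6.9. Vcp, the ATPase that extracts proteins and passes them to the proteasome, read 845, 975 and 752 with its plain probe set, at 97.7 ± 0.25, but 3 probe sets of the reduced kinds lay between 51.9 and 0.15. The proteasome-bound deubiquitinases Usp14 and Uchl5 lay at 88.8 ± 0.95 and 85.6 ± 2.2 with their plain design A probe sets. Rad23b, a shuttle for ubiquitinated cargo, lay at 92.3 and 88.7, both with probe sets of the shared or reduced kinds. Akirin2, which carries proteasomes into the nucleus, lay at 96.4 and 95.3 on design A, again with probe sets of those kinds. Its plain probe set, on design B, lay at 46.7 ± 8.2. Zfand5, an activator of the particle, lay at 94.4 ± 0.45 on design A. The 4 probe sets for Zfand5 on designs B and C ranged from 84.0 to 5.19, and the 3 for Uchl5 from 93.2 to 29.7.

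The regulators of proteasome gene expression were measured too. Nfe2l1 read 130, 147 and 128 with 1 probe set, at percentile 80.9 ± 0.98, and 43.6, 35.0 and 37.0 with the other, at 44.5 ± 4.8. Its relative Nfe2l2, the main factor of the antioxidant response, read 259.6, 192 and 219, at 88.4 ± 1.9. Ngly1, which processes the Nfe2l1 protein, lay at 90.3 ± 0.037 on design B, and at 60.2 ± 5.4 with a reduced probe set of design C. Pomp, the maturation factor of the core, read 94.5, 102 and 115, at 75.8 ± 2.6. Psmf1, a proteasome inhibitor, had 5 probe sets on designs B and C between percentiles 99.1 and 10.8. The highest read 1324, 509 and 1009, with replicate 2 the lowest and a range of 1.38 log2 units.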

How the data were processed

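The deposited tables hold 1 linear intensity per probe set and array, for designs A, B and C separately. How probes were summarised and arrays scaled was not given in the sources used here. No detection calls were used. Of 36701 probe sets, 29131 had exactly 1 symbol in the platform annotation. Intensities were turned into percentiles within each array, and a gene's value on a design is the mean over its probe sets. For log2 values, the 7 zeros were set to their array's lowest value above 0, and none was in a member. Array medians were 43.6 to 44.3 on A, 42.9 to 44.5 on B and 32.3 to 32.9 on C. With 1 condition, no test between groups was made. Genes named with full values are the highest and lowest of each role, the catalytic, activating and tissue-restricted subunits, genes under the floor, and the widest probe set and replicate differences. Members and lists were chosen with earlier results of these data known. Functions were tested on simulated data. Python 3.11.15 and pandas 2.3.3 were used. Alternatives are given in the closing section.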

Additional observations from a re-analysis of the deposited data

How the results depend on the processing

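The order of core, base and lid on design A depended on the setting. Core minus base was 9.14 percentile points with the strongest probe set per gene, 2.43 with plain probe sets alone, 2.48 with probe sets above the 40th percentile, -2.48 with medians over genes and -3.13 without Psmc4. Core minus lid was 2.05 with the strongest probe set and 1.93 above the 40th percentile. Base minus lid was -7.10 with the strongest probe set, -4.58 with plain probe sets, -0.56 above the 40th percentile, -7.87 without Psmd4, 0.50 with medians and 1.99 without Psmc4. On log2 intensities centred on the array median, these differences were 0.47, 0.15 and -0.31 in the order given. Alpha minus beta ring was 4.53 with the strongest probe set, 19.2 with plain probe sets, 17.6 with medians, 5.61 above the 40th percentile and 1.62 on the log2 scale. Leaving out each replicate gave 4.92 to 6.39 for core minus base, -1.84 to -0.52 for core minus lid, -6.91 to -6.76 for base minus lid and 16.7 to 17.2 for alpha minus beta. The sign of core minus lid is therefore not settled, and those involving the base turn on Psmc4, whose removal was chosen after seeing the data. By the mean over probe sets, 26 of 43 members (60.5%) lay above the 75th percentile, against 21.6% of 8251 named genes. It was 25 with plain probe sets and 31 to 32 without a replicate. Members above the 40th numbered 35 with plain probe sets and 41 under each other alternative. Psma3, Psmb7, Psmc3, Psmd12 and Psmd9 have no plain probe set on design A, so the plain counts cannot include them. The share of all genes was not counted with plain probe sets alone or without a replicate. Member probe sets with a range over 1 log2 unit numbered 0 with 50 added before logarithms and 0 above the 40th percentile, and 0 to 1 without a replicate; it was 0 without replicate 2 and without replicate 3. No paired analysis was possible because arrays that share a replicate number are of different designs with different probe sets, and no result comes from a test between groups. Intensities near the floor cannot show that a transcript was absent.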
